A study of Mus musculus with 10 samples.

Results

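The mouse genes whose symbols begin with Kcn encode the pore-forming and accessory subunits of potassium channels, and their transcripts were examined here in 10 mouse ovaries. Of the 99 rows of the deposited table with such a symbol, 5 named for antisense or overlapping transcripts were left out, and none was named as a pseudogene. Another 9 rows with fewer than 10 counts summed over the 10 ovaries were left out as well. This left 85 members of the 55487 genes in the table. The members were thus chosen by their summed counts, which are given here only as a description. Kcne1 had 14 counts and Kcns1 had 15, just inside the limit, while Kcnh8 had 8 counts, just outside it. No read was counted on Kcna10 or Kcnj1. All 85 members were found in GENCODE M21, the annotation of GRCm38 from which the positions below are taken.

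The ovaries came from mice of C57BL/6J background in 3 groups. Control mice (n = 4) were 8 weeks old. Aged mice (n = 3) and Aged+CF mice (n = 3) were 11 months old by the sample labels and 10 months old by the methods of the study, which also state that Control and Aged mice were injected with saline. Aged+CF mice were given 200 μL of CEFFE, the cell-free fat extract, at a protein concentration of 3 μg/μL, every 2 days for 2 weeks. All mice, Control included, had received 10 IU of PMSG, a gonadotropin that drives follicle growth, 48 h before the ovaries were collected. Whole ovaries were sequenced, so a lower level can mean fewer cells of a type or less RNA per cell, which cannot be told apart here. The design compares age (Aged vs Control), treatment at old age (Aged+CF vs Aged) and treated old ovaries with young ones (Aged+CF vs Control). The methods of the study call the libraries biological replicates, while the labels name no individual mice, and the p values measure the spread between these ovaries.

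Potassium channels set the resting membrane potential and repolarize cells after a depolarization. In the ovary they are known from granulosa, theca and luteal cells, from oocytes and from the smooth muscle of vessels. The pore-forming genes fall into voltage-gated channels (26 members), silent subunits that work only in tetramers with voltage-gated partners (9), inward rectifiers (13), K2P leak channels that carry background current (12) and channels opened by calcium, sodium or pH (8). The other 17 members are accessory subunits, which bind pores and alter their gating or transport.

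Between 15761789 and 21318254 reads were counted per ovary. Lists of marker genes of oocytes and granulosa cells were detected in every ovary, and the summed oocyte list was at 470 to 652 CPM in Control, 15.2 to 133 in Aged and 177 to 283 in Aged+CF. CPM is the count scaled to the library size by the TMM method. The ovaries varied more within the Aged group (biological coefficient of variation 0.377) than within Control (0.209) or Aged+CF (0.193). Aged 33 and Aged 34 stood apart, at 76.82 and -72.9 on the second principal component (23.1% of the variance), while the other 8 ovaries lay between -16.75 and 22.86. Surface epithelium markers summed to 8.54 CPM in Aged 33 and to 57.4 to 230 CPM elsewhere. In Aged 34, lymphocyte markers summed to 187 CPM against 5.57 to 26.2 CPM in the other 9 ovaries, and the oocyte list of 15.2 CPM was the lowest of all. Of the lymphocyte sum in Aged 34, 152 CPM came from Jchain, and the other markers were at 3.25 to 8.05 CPM each. Markers of oviduct and ciliated epithelium summed to 365 CPM in Control 33 and 303 CPM in Aged 34, against 5.95 to 34.6 CPM elsewhere.

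Kcnk3 was the most abundant member per transcript length. It encodes an acid-sensitive K2P leak channel that holds many cells near their resting potential. The mean level of Kcnk3 was 55.7 ± 41.7 FPKM (SD, n = 10), where FPKM is the deposited count scaled to gene length and to the reads of the library. Its level in every ovary was higher than that of Kcnab3, the next member, which encodes a beta subunit of voltage-gated channels and had a mean of 18.6 ± 9.41 FPKM. Next in order came Kcnh2 at 14.2 ± 3.71 FPKM, the repolarizing channel best known from the heart, and Kcnip3 at 10.4 ± 2.08 FPKM, a calcium-binding partner of A-type channels. Kcnd2, an A-type pore of the kind that Kcnip3 binds, had a mean of 6.87 ± 2.56 FPKM.
The order below Kcnk3 was not sharp. No 2 neighbours in it had ranges over the 10 ovaries that lay apart, and Kcnab3 was above Kcnh2 in only 5 of 10 ovaries. Of the 8 members with the highest mean, 4 were leak channels: Kcnk3, Kcnk1 (6.61 ± 2.84 FPKM), Kcnk5 (5.64 ± 1.86 FPKM) and the mechanosensitive Kcnk2 (4.66 ± 1.34 FPKM). The level was at or above 10 FPKM for 4 members, between 1 and 10 FPKM for 21, between 0.1 and 1 FPKM for 38, and under 0.1 FPKM for 22.

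**Figure D1:**
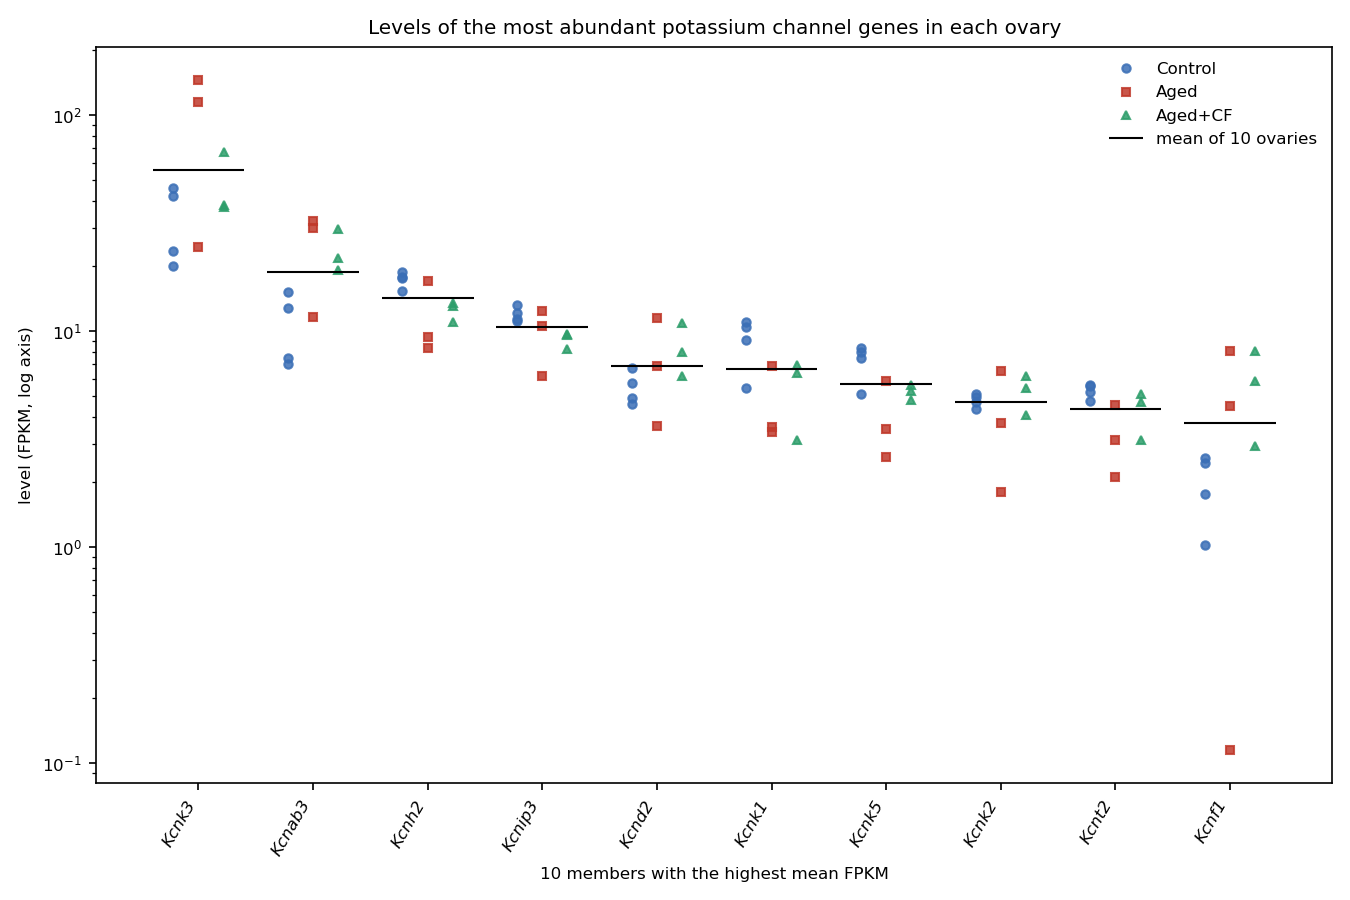
Level in FPKM (log axis) of the 10 members with the highest mean, with a point for each ovary of Control (circles), Aged (squares) and Aged+CF (triangles) and a line at the mean of the 10 ovaries. Kcnk3 lies above Kcnab3 in all 10 ovaries, although their ranges over all ovaries overlap, as do those of all other neighbours shown.

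Members of the other families were lower. Among voltage-gated pores, Kcna5 had a mean of 2.46 FPKM. Kcnf1 led the silent subunits at 3.73 ± 2.80 FPKM. Kcnj8, the pore of the vascular ATP-sensitive channel, led the inward rectifiers at 3.00 ± 0.412 FPKM. Kcnt2, a sodium-activated channel, had 4.36 ± 1.18 FPKM and Kcnma1, the large-conductance calcium-activated (BK) channel, 2.70 ± 1.25 FPKM. Its smooth muscle partner Kcnmb1 had 2.46 ± 0.818 FPKM.
Summed over a role, the leak channels carried 44.7 to 69.4 FPKM in Control ovaries, 48.8 to 155 FPKM in Aged and 57.5 to 81.6 FPKM in Aged+CF. Voltage-gated pores summed to 37.7 to 42.7 FPKM in Control, 28.4 to 49.4 FPKM in Aged and 32.6 to 40.8 FPKM in Aged+CF. Most of the difference in the leak channel sum lay in Kcnk3 alone, which made up 48.1% and 58.6% of the summed FPKM of all members in Aged 31 and Aged 33, but 15.1% in Aged 34 and 14.5% to 28.1% in Control.

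Of the 85 members, 67 passed edgeR's filter on low counts and were tested, and 18 did not. A tested member needed at least 0.575 CPM in 3 ovaries, and 47 of the 67 were past this limit in all 10. Kcnc1 passed it in 2 Aged ovaries, 1 Aged+CF ovary and no Control ovary, so its passing depended on its level in the older groups. Unless DESeq2 is named, fold changes and p values below are from edgeR's quasi-likelihood test over 18956 genes, with Benjamini-Hochberg adjustment over all of them. Each edgeR log2 fold change of a gene over all 10 ovaries is given with a standard error. This was computed as its size divided by the square root of the test's F statistic. A member was called at a fold change of at least 1.5 with an adjusted p under 0.05, the threshold in the methods of the study. Calls at an unadjusted p under 0.05, the threshold of the study's results section and of the series text, are given beside it.

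In Aged vs Control, 10 of the 67 tested members were called at adjusted p. Higher in Aged were 4 members, Kcna4, Kcnc1, Kcnab3 and Kcnk6, or 5.97% of those tested against 5.00% of all genes tested. Of these, Kcnc1 passed the filter only through its level in the older groups. Lower in Aged were 6 members, Kcnh1, Kcns2, Kcng3, Kcnq5, Kcnj3 and Kcnk13, or 8.96% against 6.06% of all genes. Both shares were thus near the background of these ovaries. At unadjusted p, 11 members were higher and 13 lower, or 16.4% and 19.4%, against 8.79% and 9.44% of all genes. The values of the Aged and Control ovaries did not overlap for 14 of the 67 members (20.9%), against 27.5% of all genes. As a median, the log2 fold change of the tested members was -0.06, beside -0.00 over all genes tested. The count of adjusted calls was 21 without Aged 34, where 16.1% of all genes tested were called in either direction, against 11.1% with all ovaries. It was 6 without Control 32 (5.74% of all genes) or Control 33 (8.32%), and 5 without Control 34 (5.80%). The median of the members was 0.13, 0.21 and -0.31 without Aged 31, 33 and 34 in turn, so that its sign rested on single Aged ovaries. Kcnh1, Kcnq5, Kcns2, Kcng3 and Kcna4 were called without each of the 10 ovaries in turn. Of the 14 members past the unadjusted threshold only, Kcnj16 and Kcnt1 kept that call without each ovary in turn, while 7 kept it without Aged 31, 8 without Aged 33 and 8 without Aged 34. That call was lost without 7 of the 10 ovaries in turn for Kcnj5 and Kcnj15, and without 6 for Kcnc2 and Kcnt2. For Kcnk1 it was lost without 5, and for Kcna3 and Kcnk18 without 4.

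**Figure D2:**
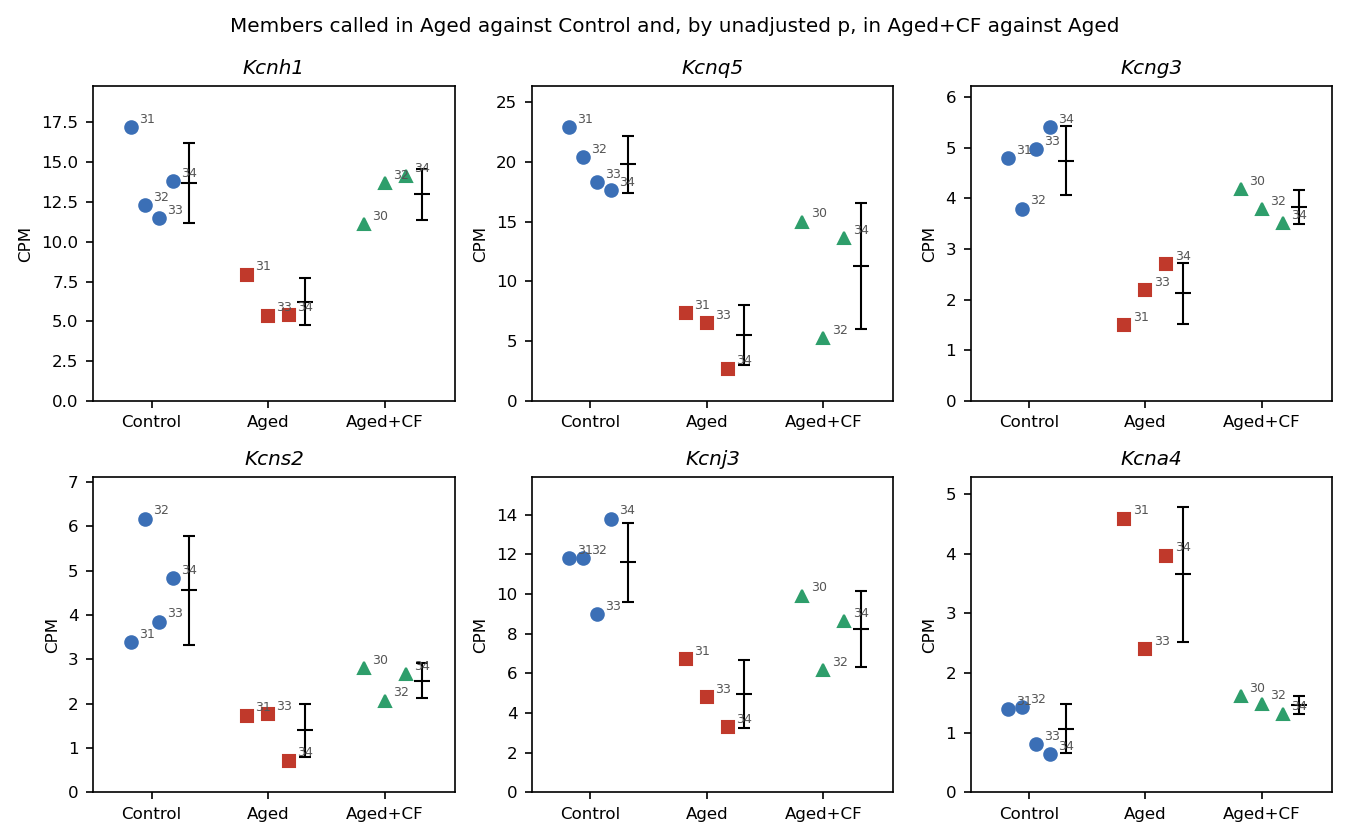
CPM in each ovary (points, with the replicate number beside each) of the 6 members called at adjusted p between Aged and Control and at unadjusted p between Aged+CF and Aged, with the mean ± SD of each group in black. Kcna4 is above, and the other 5 are below, all Control ovaries in each of the 3 Aged ovaries.

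Kcnh1 (ENSMUSG00000058248, chromosome 1, 192190774 to 192510159, plus strand) encodes a voltage-gated pore of the ether-à-go-go family whose activity varies with the cell cycle. Kcnh1 was at 17.2, 12.3, 11.5 and 13.8 CPM in the Control ovaries, 7.93, 5.36 and 5.40 CPM in Aged 31, 33 and 34, and 11.1, 13.7 and 14.1 CPM in Aged+CF. All Aged ovaries lay below all others, while Control and Aged+CF overlapped. Kcnh1 was lower in Aged (6.23 ± 1.47 CPM, n = 3) than in Control (13.7 ± 2.50 CPM, n = 4), with a log2 fold change of -1.13 ± 0.20 (edgeR adjusted p = 0.00958).
Kcnq5 (ENSMUSG00000028033, chromosome 1, 21398403 to 21961942, minus strand) contributes to the slow M-type current that damps excitability. The Control ovaries had 22.9, 20.4, 18.3 and 17.6 CPM, the Aged ovaries 7.34, 6.49 and 2.70 CPM, and Aged+CF 30, 32 and 34 had 15, 5.23 and 13.6 CPM. The Aged+CF ovaries were split, with Aged+CF 32 inside the Aged range and the other 2 between Aged and Control. The mean of Kcnq5 fell from 19.8 ± 2.41 to 5.51 ± 2.47 CPM with age, for a log2 fold change of -1.85 ± 0.41 (edgeR adjusted p = 0.0172).
Kcna4 (ENSMUSG00000042604, chromosome 2, 107290639 to 107298502, plus strand) encodes a rapidly inactivating A-type pore. It was at 1.40, 1.43, 0.811 and 0.636 CPM in Control, 4.59, 2.40 and 3.97 CPM in Aged, and 1.61, 1.49 and 1.31 CPM in Aged+CF. The 3 Aged ovaries were above the other 7. The mean of Kcna4 rose from 1.07 ± 0.407 to 3.65 ± 1.13 CPM, for a log2 fold change of 1.78 ± 0.34 (edgeR adjusted p = 0.0116).
Kcnc1, a pore of fast-spiking neurons, was close to the limit of detection. Control ovaries had 0.292, 0.125, 0.101 and 0.106 CPM of it, Aged ovaries 0.835, 0.564 and 1.38 CPM, and Aged+CF ovaries 0.631, 0.115 and 0.422 CPM. Its 80 counts over all ovaries were the fewest of any member tested. The log2 fold change was 2.55 ± 0.59 (edgeR adjusted p = 0.0203), and the adjusted p was 0.0528 to 0.0604 without Control 32, 33 or 34. As Kcnc1 passed the filter only through the older groups, these values are to be read with that selection. With no filter on low counts, its log2 fold change was 2.54 ± 0.603 (edgeR adjusted p = 0.0343).

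Promoters are shown here for the members on which the results turn most, those called with age at adjusted p and with treatment at unadjusted p. Of these, Kcna4 was higher in Aged than in Control and the other 5 were lower. Each run covers 250 bases before and 50 bases after a gene's start, from RefSeq on GRCm38.p6, read 5′ to 3′ on the gene's own strand. The table of promoters holds 63 of the 85 members. Both strands were searched for the cAMP response element core TGACG, for AAGGTCA, the site of the steroidogenic factor SF-1, for the E-box CACGTG, which reads the same on both strands, and for the TATA box TATAAA, with each match written in capitals as it reads on the gene's strand. A match describes the letters only. No entry was found for Kcns2.
Kcnh1 (chr1:192190527-192190826, plus strand) has 27 CG pairs and a match to the SF-1 site.
Kcnh1: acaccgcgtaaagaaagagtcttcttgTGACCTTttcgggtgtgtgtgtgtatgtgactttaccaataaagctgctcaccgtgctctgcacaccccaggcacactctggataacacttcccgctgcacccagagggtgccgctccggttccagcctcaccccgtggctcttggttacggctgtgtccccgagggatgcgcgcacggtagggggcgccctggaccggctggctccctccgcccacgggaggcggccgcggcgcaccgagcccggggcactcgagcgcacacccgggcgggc
Kcnq5 (chr1:21961893-21962192, minus strand) has 20 CG pairs and no match. Another entry for Kcnq5 (chr1:21962601-21962900, minus strand), not shown, has 3 CG pairs and also no match.
Kcnq5: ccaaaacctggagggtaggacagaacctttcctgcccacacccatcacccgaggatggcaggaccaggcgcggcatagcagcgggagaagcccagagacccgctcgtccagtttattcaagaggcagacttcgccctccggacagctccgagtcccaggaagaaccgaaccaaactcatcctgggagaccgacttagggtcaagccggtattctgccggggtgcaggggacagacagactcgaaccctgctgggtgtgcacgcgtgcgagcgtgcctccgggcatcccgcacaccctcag
Kcng3 (chr17:83631846-83632145, minus strand) has 49 CG pairs and a match to the cAMP response element core.
Kcng3: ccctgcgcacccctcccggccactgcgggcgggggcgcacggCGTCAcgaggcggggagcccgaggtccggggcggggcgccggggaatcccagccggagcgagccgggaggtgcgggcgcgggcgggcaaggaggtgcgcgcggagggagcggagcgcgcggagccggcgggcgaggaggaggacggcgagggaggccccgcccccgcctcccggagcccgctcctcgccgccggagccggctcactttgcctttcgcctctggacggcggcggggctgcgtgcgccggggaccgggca
Kcnj3 (chr2:55435720-55436019, plus strand) has 10 CG pairs and no match.
Kcnj3: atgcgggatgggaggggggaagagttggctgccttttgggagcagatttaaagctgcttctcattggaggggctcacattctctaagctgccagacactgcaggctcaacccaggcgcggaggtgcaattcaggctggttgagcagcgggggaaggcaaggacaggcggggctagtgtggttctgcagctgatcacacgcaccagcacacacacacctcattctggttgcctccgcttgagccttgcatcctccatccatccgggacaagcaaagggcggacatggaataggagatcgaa
Kcna4 (chr2:107290339-107290638, plus strand) has 20 CG pairs and no match.
Kcna4: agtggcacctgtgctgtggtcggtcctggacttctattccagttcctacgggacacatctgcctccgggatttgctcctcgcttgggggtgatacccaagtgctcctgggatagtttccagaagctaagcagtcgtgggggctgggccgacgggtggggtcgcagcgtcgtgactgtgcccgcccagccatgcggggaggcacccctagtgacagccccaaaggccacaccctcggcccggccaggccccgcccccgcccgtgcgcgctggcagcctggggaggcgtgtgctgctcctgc
No motif was held by more than 1 of these promoters. The core TGACG was found in 16.1% of the 87 promoters of members and 20.8% of all 32851 promoters of the same length. The SF-1 site was found in 3.45% and 4.72%, the E-box in 8.05% and 7.15%, and the TATA box in 5.75% and 13.6%. The median number of CG pairs was 9 over the members' promoters and 7 over all.

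Other voltage-gated pores passed at unadjusted p only. Kcna3, known from lymphocytes and macrophages, was at 0.525, 0.125, 0.710 and 0.265 CPM in Control, 1.07, 0.494 and 1.82 CPM in Aged, and 0.745, 1.44 and 0.797 CPM in Aged+CF, a log2 fold change of 1.46 ± 0.57 in Aged vs Control (edgeR adjusted p = 0.113). Its highest value was in Aged 34, the ovary with lymphocyte markers at 187 CPM, of which Jchain made up 152 CPM. Without that ovary the log2 fold change of Kcna3 was 0.97, past neither p threshold. The part of lymphocytes in its level was not tested. Kcnc2, a relative of Kcnc1, was lower in Aged by the same threshold, with a log2 fold change of -0.90 ± 0.37 and ranges that did not overlap. It missed that threshold without 6 of the ovaries in turn, among them Aged 33 (-0.88) and Aged 34 (-0.66).
Kcnh2, the most abundant voltage-gated pore, was at 93.7, 109, 108 and 115 CPM in Control, 54.5, 67.9 and 107 CPM in Aged and 80.7, 69.9 and 85.7 CPM in Aged+CF. It was below the fold threshold, with a log2 fold change of -0.47 ± 0.20 (unadjusted p = 0.0395 in edgeR). Among Aged ovaries only Aged 34 was within the Control range, and without it Kcnh2 was called at a log2 fold change of -0.76 (edgeR adjusted p = 0.00519). Among other abundant voltage-gated pores, Kcnd2 (0.52 ± 0.30) and Kcna5 (0.13 ± 0.75) passed neither threshold. Kcna5 varied widely within each group, from 3.55 to 14.9 CPM in Control and from 2.89 to 16.7 CPM in Aged.

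Among silent subunits, 2 of 7 tested members were lower in Aged at adjusted p, beside 6.06% of all genes, and none was higher. Kcns2 (ENSMUSG00000050963, chromosome 15, 34837355 to 34843407) modifies channels of the Kcnb genes. Its values were 3.38, 6.17, 3.85 and 4.82 CPM in Control, 1.73, 1.76 and 0.717 CPM in Aged, and 2.81, 2.07 and 2.67 CPM in Aged+CF. The 3 groups did not overlap, with Aged+CF between the others. Its mean fell from 4.56 ± 1.23 to 1.40 ± 0.595 CPM with age, for a log2 fold change of -1.70 ± 0.35 (edgeR adjusted p = 0.0144).
Kcng3 (ENSMUSG00000045053, chromosome 17, 83585957 to 83631895) encodes a silent subunit of another family with the same partners. It was at 4.79, 3.80, 4.97 and 5.41 CPM in Control, 1.49, 2.19 and 2.70 CPM in Aged, and 4.19, 3.79 and 3.52 CPM in Aged+CF. The Aged ovaries lay below the other 7. Its mean fell from 4.74 ± 0.678 to 2.13 ± 0.608 CPM, for a log2 fold change of -1.15 ± 0.24 (edgeR adjusted p = 0.0149).
Kcnf1, the most abundant silent subunit, passed no threshold in Aged vs Control with all ovaries. It was at 4.73, 8.29, 11.8 and 11.3 CPM in Control, but at 22.2, 0.635 and 38.7 CPM in the Aged ovaries and 37.7, 28.1 and 13.9 CPM in Aged+CF. Aged 33 was thus below every other ovary while Aged 34 was above every other, and the log2 fold change of 1.19 carried a standard error of 0.83. Without Aged 33 Kcnf1 was called higher in Aged, at 1.78 ± 0.432 (edgeR adjusted p = 0.0336). All Aged+CF ovaries were above all Control ovaries, with a log2 fold change of 1.55 ± 0.83 (edgeR adjusted p = 0.420). The surface epithelium markers summed to 57.4, 116, 140 and 119 CPM in Control and to 137, 8.54 and 230 CPM in Aged 31, 33 and 34. In Aged+CF 30, 32 and 34 they summed to 191, 179 and 83.5 CPM. Their part in the level of Kcnf1 was not tested.

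Inward rectifiers are named for passing current more readily into the cell than out of it. Kcnj3 (ENSMUSG00000026824, chromosome 2, 55435970 to 55598145) encodes GIRK1, a pore opened by G proteins. It was at 11.8, 11.8, 8.98 and 13.8 CPM in Control, 6.74, 4.80 and 3.31 CPM in Aged, and 9.92, 6.15 and 8.62 CPM in Aged+CF. All Aged ovaries lay below all Control ovaries, and Aged+CF overlapped both groups. The mean of Kcnj3 fell from 11.6 ± 1.98 to 4.95 ± 1.72 CPM, for a log2 fold change of -1.23 ± 0.27 (edgeR adjusted p = 0.0174, and 0.0510 without Control 34). Of its annotated exon bases, 31.1% lie opposite the lincRNA gene Gm26794, and since the strand setting of the counting is not given in the sources used here, reads of the 2 genes cannot be told apart.
Kcnj5, whose product GIRK4 joins GIRK1 in a mixed channel, was at 1.75, 2.93, 2.28 and 1.75 CPM in Control, 0.716, 1.98 and 0.662 CPM in Aged, and 1.26, 0.862 and 1.22 CPM in Aged+CF. Its log2 fold change in Aged vs Control was -0.98 ± 0.41, past the unadjusted threshold only (edgeR adjusted p = 0.137). Without Aged 33 it was -1.62 and was called (edgeR adjusted p = 0.0238), and without Aged 34 it was -0.67, past neither p threshold. The unadjusted call of Kcnj5 was lost without 7 of the 10 ovaries in turn.
Kcnj16 and Kcnj10 encode subunits that also form a mixed channel with each other. Kcnj16 (ENSMUSG00000051497) was at 40.3 CPM in Aged 31 and 33 CPM in Aged 33 but at 0.496 CPM in Aged 34, while Control ovaries had 5.02, 0, 0.913 and 0.159 CPM and Aged+CF ovaries 4.30, 1.90 and 0.750 CPM. The log2 fold change of 4.01 ± 1.37 passed at unadjusted p (edgeR adjusted p = 0.0753). Without Aged 34 it was 4.62 and was called (edgeR adjusted p = 0.0142). Kcnj10 was at 1.93, 1.68, 1.22 and 1.70 CPM in Control, 2.45, 1.90 and 3.86 CPM in Aged, and 3.61, 3.73 and 3.19 CPM in Aged+CF, a log2 fold change of 0.75 ± 0.28 in Aged vs Control (edgeR adjusted p = 0.0958). Without Aged 34 it was 0.46, past neither threshold, and without Aged 33 it was 0.98 and was called (edgeR adjusted p = 0.0458). Kcnj15, which can also pair with Kcnj16, passed at unadjusted p with a log2 fold change of 1.39 ± 0.59, and past neither p threshold without Aged 34 (0.67). Kcnj8 and Kcnj2 passed neither threshold.

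Of the 7 K2P leak channels tested, 2 were called at adjusted p and 6 at unadjusted p, beside 11.1% and 18.2% of all genes in either direction. Kcnk13 (ENSMUSG00000045404, chromosome 12, 99964499 to 100062682), a halothane-inhibited channel known from microglia, was at 3.85, 2.87, 3.60 and 3.29 CPM in Control, 1.73, 1.48 and 2.37 CPM in Aged and 2.35, 2.41 and 2.81 CPM in Aged+CF. The Control ovaries were above the other 6. Kcnk13 fell by 0.86 ± 0.23 on the log2 scale in Aged (edgeR adjusted p = 0.0343).
Kcnk6 (ENSMUSG00000046410, chromosome 7, 29221926 to 29232515), a weakly rectifying channel of vessels, was at 6.13, 7.23, 6.14 and 5.99 CPM in Control, 8.71, 7.90 and 12.9 CPM in Aged and 6.65, 6.83 and 6.98 CPM in Aged+CF. The 3 Aged ovaries were above all others. Its log2 fold change was 0.63 ± 0.19, just past the fold threshold (edgeR adjusted p = 0.0466). With each of the 10 ovaries left out in turn, Kcnk13 kept its adjusted call 2 times and Kcnk6 1 time. Without Aged 34 the edgeR adjusted p was 0.0152 for Kcnk13 and 0.0701 for Kcnk6.
Kcnk3 (ENSMUSG00000049265, chromosome 5, 30588170 to 30625271) was the member whose Aged ovaries spread most widely in absolute level. It was at 192, 99.4, 173 and 83.5 CPM in Control, 509, 717 and 106 CPM in Aged 31, 33 and 34, and 161, 292 and 161 CPM in Aged+CF. Aged 31 and Aged 33 were above all other ovaries and Aged 34 was within the Control range. Over all ovaries the log2 fold change was 1.70 ± 0.54 (edgeR adjusted p = 0.0604), without Aged 34 it was 2.20 (edgeR adjusted p = 0.00464), and without Aged 33 it was 1.20, past neither p threshold (unadjusted p = 0.0643 in edgeR).
Other leak channels were lower in Aged at unadjusted p. Kcnk5, an alkaline-activated channel of epithelia, was at 18.1, 30.4, 26.6 and 28.5 CPM in Control, 13.4, 11.1 and 21.8 CPM in Aged, and 19.1, 17.7 and 20.7 CPM in Aged+CF, a log2 fold change of -0.74 ± 0.24 (edgeR adjusted p = 0.0648, and 0.00833 without Aged 34). Without Aged 33 the log2 fold change of Kcnk5 was -0.53, under the fold threshold. Kcnk1 had a log2 fold change of -0.84 ± 0.34, which was -1.15 without Aged 34 (edgeR adjusted p = 0.0441) and -0.72 without Aged 33, past neither p threshold. The calcineurin-regulated Kcnk18, under 2 CPM in every ovary, had a log2 fold change of -2.48 ± 0.97. Its Aged reads all lay in Aged 33, at 0.705 CPM, and with that ovary left out it was at 0 in both remaining Aged ovaries and was called (edgeR adjusted p = 0.0127). Without Aged 34 it was -1.82, past neither p threshold. Kcnk2 was at 38.1 to 45.6 CPM in Control and at 35.2, 18.8 and 59.8 CPM in Aged, with a log2 fold change of -0.15 ± 0.31.

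Of the 8 channels opened by calcium, sodium or pH, all were tested and none was called at adjusted p, beside 11.1% of all genes. Kcnma1 was at 46.1, 33.9, 42.3 and 27.6 CPM in Control, 97.3, 74.1 and 40.9 CPM in Aged, and 69.1, 118 and 84.5 CPM in Aged+CF. Again 2 Aged ovaries were above the Control range and Aged 34 was within it. Its log2 fold change in Aged vs Control was 0.92 ± 0.29 (edgeR adjusted p = 0.0605), and 1.23 without Aged 34 (edgeR adjusted p = 0.00923). Without Aged 31 it was 0.65 and missed the unadjusted threshold.
The sodium-activated pair went the other way at unadjusted p. Kcnt1 was at 36.8, 51.6, 34.4 and 48.9 CPM in Control, 22, 18.1 and 29.7 CPM in Aged and 32.3, 51.3 and 23.4 CPM in Aged+CF, a log2 fold change of -0.88 ± 0.28 in Aged (edgeR adjusted p = 0.0578, and 0.0346 without Aged 34 at -1.06). Kcnt2 had one of -0.59 ± 0.22 (edgeR adjusted p = 0.0962), which was -0.82 without Aged 34 (edgeR adjusted p = 0.0188) and -0.37 without Aged 33, past neither threshold. Among the calcium-activated Kcnn genes, Kcnn4, the intermediate-conductance channel of blood cells, was at 7.11 CPM in Aged 34 and at 1.56 to 3.96 CPM in the other 9 ovaries, with a log2 fold change of 0.86 ± 0.49. Kcnu1, known from sperm, had a log2 fold change of -0.49 ± 0.31.

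Among the 15 accessory subunits tested, 1 was called at adjusted p, beside 11.1% of all genes. Kcnab3 (ENSMUSG00000018470, chromosome 11, 69326258 to 69333042) was at 44.7, 22.7, 37.4 and 20.8 CPM in Control, 94.7, 114 and 35.6 CPM in Aged, and 64.7, 91.6 and 58.5 CPM in Aged+CF. All 3 Aged+CF ovaries were above all Control ovaries, while Aged 34 was within the Control range. The mean of Kcnab3 rose from 31.4 ± 11.6 to 81.3 ± 40.7 CPM with age, for a log2 fold change of 1.37 ± 0.39 (edgeR adjusted p = 0.0405, and 0.00533 without Aged 34). The adjusted call was lost without each of 8 ovaries in turn and kept without Aged 34 or Control 31. The gene shares 5.13% of its exon bases with the antisense Kcnab3os, which had at most 2.68 CPM.
No other accessory subunit passed at unadjusted p with all ovaries. The log2 fold change was -0.19 ± 0.17 for Kcnip3, -0.02 ± 0.33 for Kcnmb1, 0.20 ± 0.71 for Kcne2 and -0.24 ± 0.62 for the channel regulator Kcnrg. Kcnmb1 was nevertheless at 5.13 and 8.54 CPM in Aged 31 and 33 and at 18.1 CPM in Aged 34, beside 9.91 to 11.4 CPM in Control. The smooth muscle markers summed to 1200, 1500 and 2870 CPM in the same 3 Aged ovaries, and their part in the level of Kcnmb1 was not tested.

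**Figure D3:**
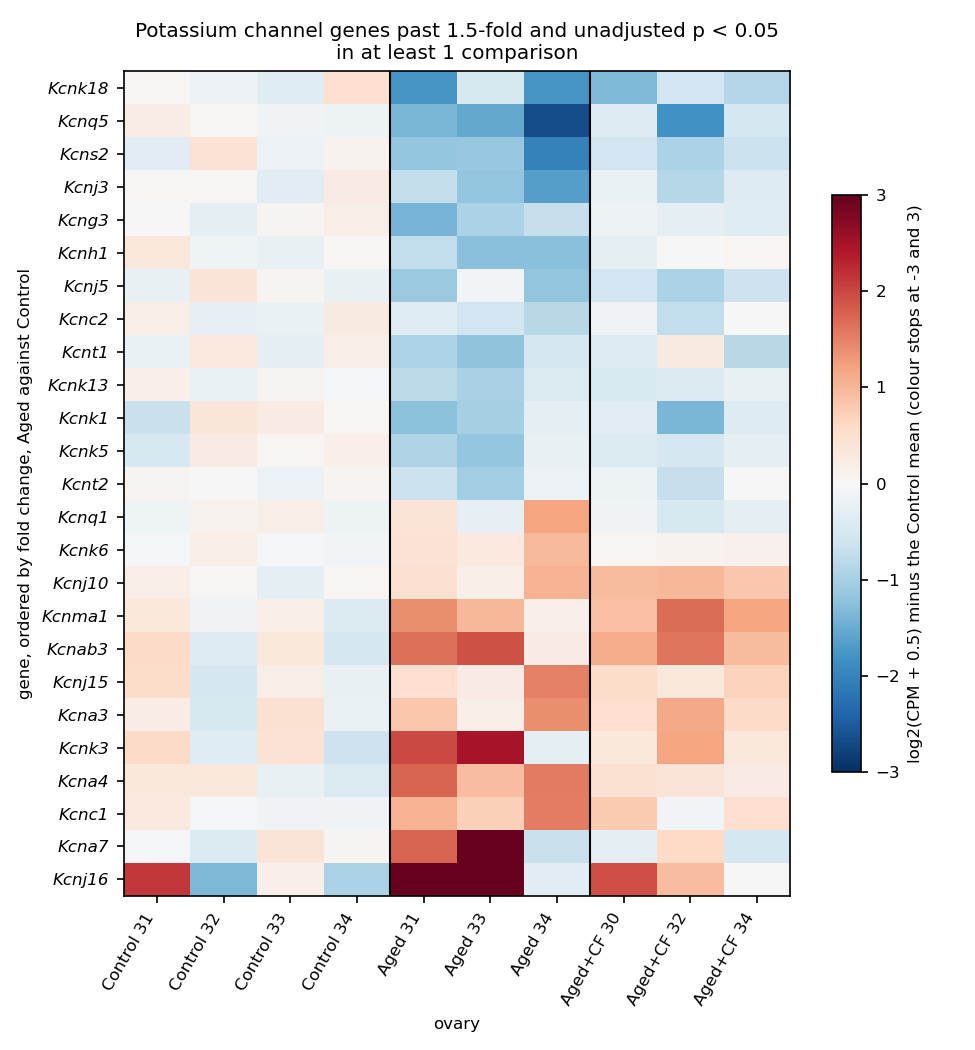
Difference of log2(CPM + 0.5) from the Control mean (colour, from -3 in blue to 3 in red) for the 25 members past a 1.5-fold change and unadjusted p under 0.05 in at least 1 of the 3 comparisons, in each of the 10 ovaries. Kcnk3, Kcna7 and Kcnj16 are red in Aged 31 and Aged 33 and not in Aged 34, whereas Kcna4 and Kcnc1 are red in all 3 Aged ovaries.

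In Aged+CF vs Aged, no member was called at adjusted p by edgeR, where 0.00528% of all genes tested were called. At an unadjusted p under 0.05, whatever the fold, there were 10 of the 67 tested members, beside 3096 of the 18956 genes tested. DESeq2's Wald test called 2 members at adjusted p, Kcnh1 (log2 fold change 1.05, adjusted p = 0.00132) and Kcna4 (-1.33, adjusted p = 0.0275), while it called 2.33% of all genes. With the fold threshold, edgeR's unadjusted p called 9 of the 67 tested members. Higher in Aged+CF were 5 (7.46%, against 3.91% of all genes), namely Kcnh1, Kcng3, Kcnj3, Kcnq5 and Kcns2. Lower were 4 (5.97%, against 4.05%), namely Kcna4, Kcna7, Kcnj16 and Kcnq1. The groups did not overlap for 5 members (7.46%), Kcnh1, Kcng3, Kcns2, Kcna4 and Kcnk6, against 18.6% of all genes. At the median, the log2 fold change was -0.02 for the members and -0.02 for all genes.
Because both comparisons use the same 3 Aged ovaries, a deviation of these ovaries moves both in opposite directions, and the values are given side by side without a test of their relation. Kcnh1 had log2 fold changes of -1.13 ± 0.20 with age and 1.06 ± 0.21 with treatment (unadjusted p = 0.000602 in edgeR). For Kcng3 these were -1.15 ± 0.24 and 0.84 ± 0.25, and for Kcna4 1.78 ± 0.34 and -1.31 ± 0.36. These 3 members kept their unadjusted calls in Aged+CF vs Aged without each of the 10 ovaries in turn.
The other 3 members called lower in Aged and, at unadjusted p, higher in Aged+CF did not. Kcnq5 had a log2 fold change of 1.04 ± 0.42 in Aged+CF vs Aged, which was 0.69 without Aged 34 and 0.77 without Aged+CF 30. Kcns2 had 0.85 ± 0.37, which was 0.51 without Aged 34, and Kcnj3 had 0.73 ± 0.28, which was 0.49 without that ovary. All of these values without an ovary missed the unadjusted threshold. The calls of all 3 members were also lost without Aged+CF 30 and without Aged+CF 34. That of Kcnj3 was lost without Aged 33 as well, and that of Kcns2 without Control 33 or Control 34. The oocyte list, at 133, 116 and 15.2 CPM in Aged 31, 33 and 34, was lowest in the same ovary in which Kcnq5, Kcns2 and Kcnj3 were lowest. Its part in these results was not tested.

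**Figure D4:**
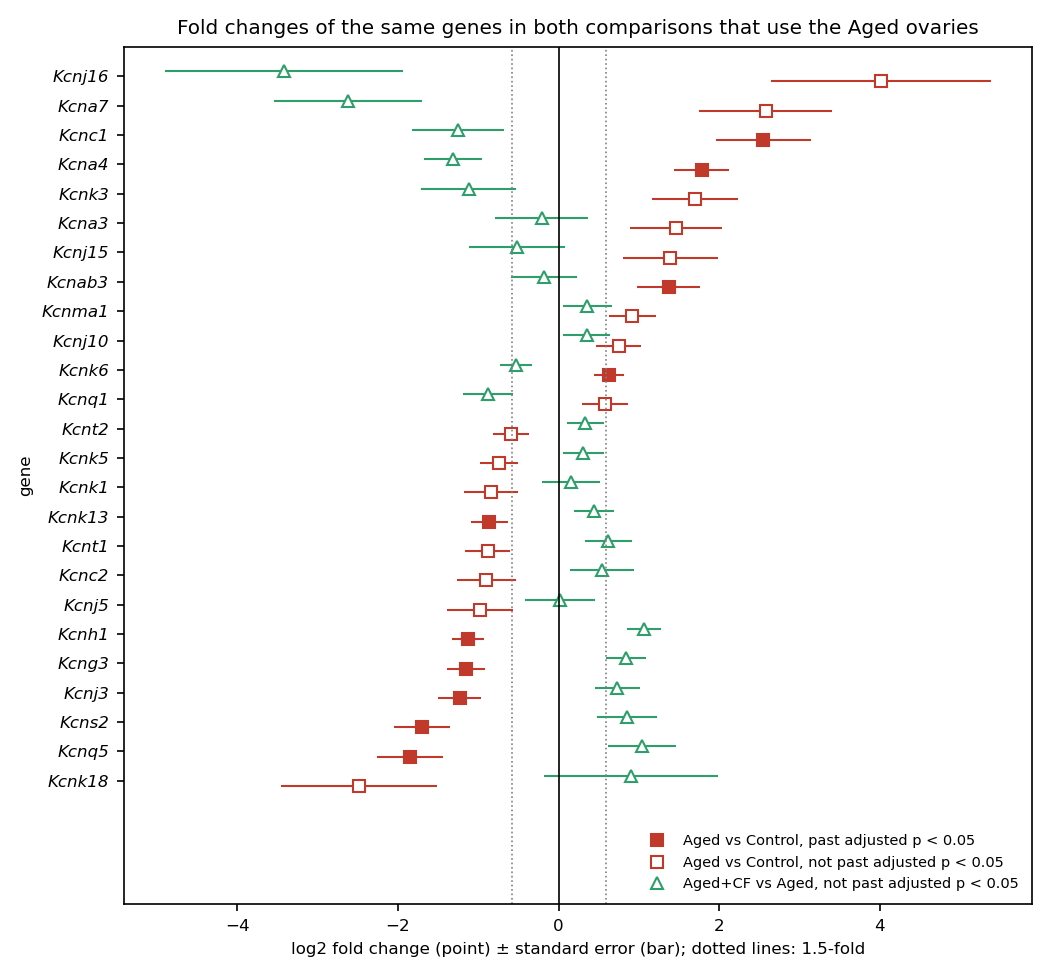
Log2 fold change (points) with its standard error (bars) of 25 members between Aged and Control (squares) and between Aged+CF and Aged (triangles), where filled points passed adjusted p under 0.05 and dotted lines mark a 1.5-fold change. Both comparisons share the 3 Aged ovaries, and no triangle is filled.

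Members lower in Aged+CF than in Aged included those that were high in 2 of 3 Aged ovaries. Kcna7 (ENSMUSG00000038201), a pore of skeletal muscle and heart, was at 1.05, 0.686, 1.57 and 1.17 CPM in Control, 4.83, 15.1 and 0.496 CPM in Aged, and 0.803, 1.90 and 0.609 CPM in Aged+CF. Aged 34 was below all other ovaries. The log2 fold change of Kcna7 was 2.58 ± 0.83 with age (edgeR adjusted p = 0.0623) and -2.62 ± 0.92 with treatment (edgeR adjusted p = 0.224). Without Aged 34, Kcna7 was called in both, at 3.17 with age (edgeR adjusted p = 0.00467) and -3.19 with treatment (edgeR adjusted p = 0.0287). Without Aged 33 these were 1.27 and -1.28, both past no p threshold. For Kcnj16 the log2 fold change in Aged+CF vs Aged was -3.42 ± 1.48 (edgeR adjusted p = 0.294), and -3.16 without Aged 33, past no p threshold.
Kcnq1, the pore of the slow cardiac repolarizing current, was at 9.98, 12, 12.5 and 9.91 CPM in Control, 14.9, 9.24 and 25.6 CPM in Aged, and 10.2, 7.75 and 9.14 CPM in Aged+CF. Its log2 fold change in Aged+CF vs Aged was -0.88 ± 0.31, and -0.43 without Aged 34, past neither p threshold. It shares 2.96% of its exon bases with the antisense transcript Kcnq1ot1, which was at 15.9 to 38.7 CPM. Kcnk6 was lower by 1.44-fold after treatment, under the fold threshold, with no overlap (unadjusted p = 0.0243 in edgeR).
Leaving out Aged 34 raised the unadjusted calls in Aged+CF vs Aged from 9 to 18 members, where 12.2% of all genes were called. The adjusted calls went from 0 to 2, Kcna7 and the beta subunit Kcnab1, with 2.87% of all genes called, and the median log2 fold change of the members moved from -0.02 to 0.33. Without Aged+CF 30 there were 5 unadjusted calls (6.10% of all genes), and without Aged 33 the median was -0.19.

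In Aged+CF vs Control, no member was called at adjusted p by edgeR, where 0.179% of all genes were called. Whatever the fold, 5 of the 67 tested members had an unadjusted p under 0.05, beside 2712 of the 18956 genes tested. DESeq2 called 2 of these 5 members at adjusted p, Kcnma1 (log2 fold change 1.30, adjusted p = 0.00362) and Kcnj10 (1.13, adjusted p = 0.0143), beside 2.79% of all genes. The unadjusted calls of edgeR were Kcnma1, Kcnj10 and Kcnab3, higher in Aged+CF (4.48% of members, against 3.33% of all genes), and Kcns2 and Kcnj5, lower (2.99%, against 4.36%). The groups did not overlap for 13 members (19.4%), against 21.9% of all genes. The median log2 fold change was -0.04 for the members and -0.03 for all genes. The unadjusted calls were 9 without Aged 33 (8.50% of all genes) or Aged 34 (10.3%), whose spread enters the fit, and 3 without Control 32 (5.57%) or Aged+CF 34 (7.58%). The adjusted calls were 2 without Aged 34, with 1.80% of all genes called.
Kcnma1 had a log2 fold change of 1.27 ± 0.29 (edgeR adjusted p = 0.118), with every Aged+CF ovary above every Control ovary. For Kcnj10 it was 1.10 ± 0.28 (edgeR adjusted p = 0.137) and for Kcnab3 1.19 ± 0.39 (edgeR adjusted p = 0.223). Their log2 fold changes in Aged+CF vs Aged were 0.36 ± 0.31, 0.35 ± 0.29 and -0.18 ± 0.41, none past a threshold. Kcns2 had -0.85 ± 0.33 in Aged+CF vs Control, in the same direction as in Aged vs Control. Kcnh1, in contrast, had -0.08 ± 0.20 in Aged+CF vs Control, with an unadjusted p of 0.703 in edgeR.

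Marker lists moved with some of the members across single ovaries. The 6 luteal markers summed to 20000, 27800 and 10900 CPM in Aged 31, 33 and 34, to 3200 to 7750 CPM in Control and to 9830, 16600 and 8890 CPM in Aged+CF 30, 32 and 34. All 6 were called higher in Aged than in Control at adjusted p, and none of them was at 0 in all ovaries. Kcnk3, Kcnab3 and Kcna7 were likewise highest in Aged 33, and each was highest in Aged+CF 32 within the treated group. In Aged 34, by contrast, the luteal sum was above all Control ovaries, with 6510 of its 10900 CPM from Cyp11a1. Lhcgr, Star and Prlr were also above all Control ovaries there, and Ptgfr was at 492 CPM beside 142 to 490 CPM in Control. Akr1c18, at 219 CPM, was within its Control range of 57.5 to 322 CPM. In the same ovary Kcnk3 and Kcnab3 were within the Control range, and Kcna7 was below all other ovaries. The luteal marker Lhcgr was at 1970, 1860 and 1790 CPM in Aged 31, 33 and 34 and at 536, 499 and 304 CPM in Aged+CF 30, 32 and 34. Kcnj16 was highest in Aged 31 and, among treated ovaries, in Aged+CF 30. Kcnk10, a leak channel that was not tested, was at 0.895 and 0.705 CPM in Aged 31 and 33 and at 0 to 0.152 CPM elsewhere. The 3 erythroid markers summed to 269, 414 and 177 CPM in Aged 31, 33 and 34 and to 46.5 to 75.0 CPM in Control, and the 6 endothelial markers to 596, 680 and 512 CPM and to 377 to 451 CPM. Both lists were thus highest in Aged 33 as well, with 3 of 3 and 4 of 6 markers called higher in Aged at adjusted p. The part of luteal, blood and vessel cells in these levels was not tested.
The members that stood out in Control 33 and Aged 34 followed another list. Kcnk12, a leak channel, was at 3.70 CPM in Control 33 and 2.59 CPM in Aged 34 and at 0 to 0.530 CPM in the other 8 ovaries. Kcnk16, a leak channel known from pancreatic islets, was at 1.01 and 0.551 CPM in the same 2 ovaries and at 0 to 0.0530 CPM elsewhere. These are the ovaries with 365 and 303 CPM of oviduct and ciliated markers. Kcne1, a small partner of Kcnq1, was at 0.304 and 0.386 CPM in them and at no more than 0.0530 CPM elsewhere. Kcnk12 and Kcnk16 were picked for mention after their values were seen, and the part of oviduct tissue in their levels was not tested. Without both libraries, 19 members were called in Aged vs Control at adjusted p (14.4% of all genes), and Kcna7 alone in Aged+CF vs Aged (1.51% of all genes).

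**Figure D5:**
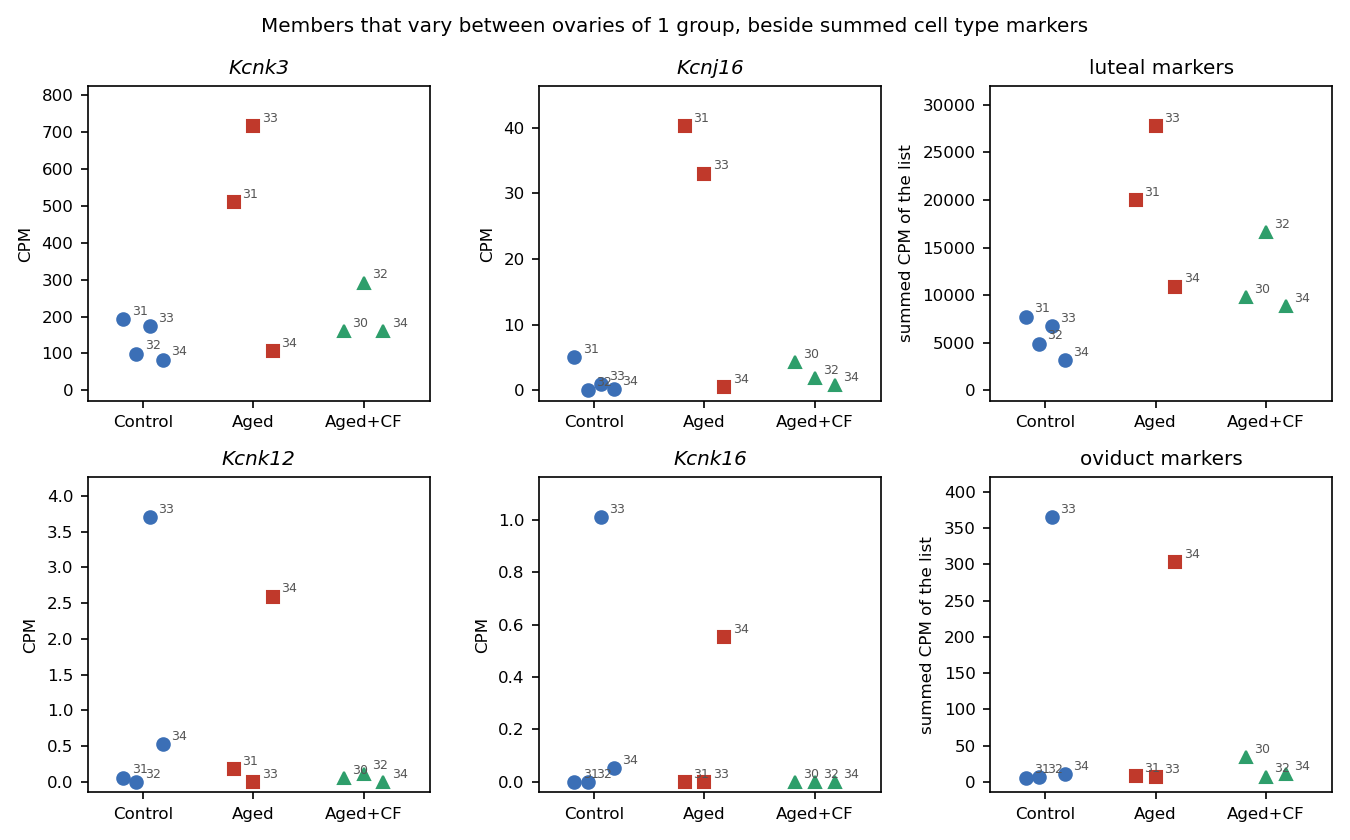
CPM of 4 leak or inward rectifier channels and summed CPM of the luteal and of the oviduct and ciliated epithelium markers in each ovary (points, with the replicate number beside each). Kcnk3, Kcnj16 and the luteal list are highest in Aged 31 and Aged 33, and Kcnk12, Kcnk16 and the oviduct list in Control 33 and Aged 34.

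The 18 members not tested had 14 to 137 counts in all. Besides Kcnk12, Kcnk16, Kcnk10 and Kcne1 they included Kcnc4, at 0.0573 to 1.01 CPM, and the silent subunit Kcnv2, at 0 to 0.882 CPM. Kcnk10 was past the limit of 0.575 CPM in 2 Aged ovaries and in no Control or Aged+CF ovary. It passed the filter without Aged 34, so its passing depended on its level in the Aged ovaries. Its log2 fold change in Aged vs Control was then 3.44 (edgeR adjusted p = 0.0185), which cannot be read apart from that selection. With no filter on low counts, so that all 85 members were tested, 2 were higher and 5 lower in Aged than in Control at adjusted p, all of them among the 10 called with the filter, beside 4.56% of all genes. At unadjusted p, 12 were higher and 13 lower, against 11 and 13 with the filter. The share of all genes at unadjusted p was not counted for this setting.

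Outside the Kcn genes, a list of 16 partners was examined, which holds the sulfonylurea receptors, the auxiliary proteins of A-type and BK channels, the intracellular TRIC channels and the related Hcn pacemaker pores. Of the 14 tested, 1 was called at adjusted p in Aged vs Control, Dpp10, which was lower, beside 11.1% of all genes. Dpp10, an auxiliary protein of A-type channels such as Kcnd2, was at 3.33, 5.36, 5.43 and 3.23 CPM in Control, 0.596, 1.13 and 1.49 CPM in Aged and 0.975, 0.689 and 1.12 CPM in Aged+CF. Control lay above both older groups, which overlapped. Dpp10 fell by 2.01 ± 0.37 on the log2 scale in Aged (edgeR adjusted p = 0.0101), while its log2 fold change in Aged+CF vs Control was -2.21 ± 0.37 (edgeR adjusted p = 0.0626).
Further partners passed at unadjusted p only. Lrrc55, a BK partner, and the pacemaker pore Hcn4 were lower in Aged than in Control, with log2 fold changes of -0.99 ± 0.35 and -1.81 ± 0.62. Hcn2 was lower in Aged+CF than in Aged, at -0.61 ± 0.22. Tmem38b, which encodes a TRIC channel of the endoplasmic reticulum, had an adjusted p of 0.0366 in edgeR at 0.55 ± 0.15, under the fold threshold. Abcc9, the receptor that pairs with the Kcnj8 pore, was at 52.9 to 69.0 CPM in Control, 50.5 to 84.5 CPM in Aged and 60.3 to 70.0 CPM in Aged+CF, and its log2 fold change in Aged vs Control was 0.08 ± 0.17. Without Aged 34, partners were called 4 times at adjusted p and 9 times at unadjusted p over the 3 comparisons, against 1 and 5 times with it. The adjusted calls were 2 without Control 33 or Aged 31, and the unadjusted calls 3 without Aged 33. Over the partners tested, the median log2 fold change was -0.03 with age and -0.00 with treatment.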

How the data were processed

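Total RNA of 10 mouse ovaries, with a library for each, was sequenced for Control (n = 4), Aged (n = 3) and Aged+CF (n = 3). The submitters' processing notes name TopHat and Cufflinks 2.1.1 and the build GRCm38.p4. The instrument differs between the series text and the methods of the study. The counting tool, annotation and strand setting are not given in the sources used here. Per gene, the authors deposited raw counts, not normalized, and the FPKM computed from these counts. No authors' fold changes were used.

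From the counts, edgeR 4.0.16 in R 4.3.3 was run with its default filter on low counts (18956 genes kept), TMM scaling and a quasi-likelihood fit of group means to the 10 ovaries together, with the spread estimated over all groups. The test was two-sided, with Benjamini-Hochberg adjustment over all genes tested. A call needed a fold change of 1.5 and a p under 0.05. The p is adjusted in the methods of the study and unadjusted in its results section and series text. FPKM, which is scaled to the reads of the library without TMM, was used to order levels and to sum them over members. It entered no test. DESeq2 1.42.0 was an alternative, beside its size factors, no filter, only the groups compared, the replicate number as a block, and each ovary left out. Leaving out both ovaries with oviduct markers was added after seeing the data. The scripts were tested on simulated data. No pair of libraries agreed within sampling noise.

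Groups and replicate numbers follow the sample titles. The members, lists and tests were chosen with earlier results of these data known. Genes named are the members called at adjusted p, up to 12 called at unadjusted p in Aged+CF vs Aged, the 8 highest by mean FPKM, the highest of each family, those at the count limit, and partners past a threshold. Others named, such as Kcnk10, Kcnk12 and Kcnk16 and members called at unadjusted p in the other comparisons, were chosen after their values were seen. Depth was 15761789 to 21318254 counts per ovary, and counting error limits genes under a few CPM.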

Additional observations from a re-analysis of the deposited data

Results flagged for a closer look

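The CPM in the 4 Control ovaries was checked for an ovary far from the other 3, by Dixon's ratio of gap to range. Of the 35 members that the naming rule picks, 4 had such an ovary, and chance gives about 1 in 20. Of 13 further members named after their values were seen, 2 had one, Kcnk12 and Kcnk16, which were named for their level in Control 33 and cannot be read against chance. Groups of 3 were not checked.

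In Control 33, which carried oviduct and ciliated markers at 365 CPM, 4 leak, accessory or calcium-activated members stood above the other Control ovaries. Kcnrg was at 4.06 CPM against 0.934 to 1.25 CPM, Kcnn4 at 3.04 CPM against 1.56 to 1.80 CPM, Kcnk12 at 3.70 CPM against 0 to 0.530 CPM, and Kcnk16 at 1.01 CPM against 0 to 0.0530 CPM. In Aged 34, the other ovary with these markers, the same members were at 3.09, 7.11, 2.59 and 0.551 CPM. The part of the markers in these values was not tested. Kcnk6 was at 7.23 CPM in Control 32 against 5.99 to 6.14 CPM in the others, still below the lowest Aged ovary at 7.90 CPM. Kcnc1 was at 0.292 CPM in Control 31 against 0.101 to 0.125 CPM, below the lowest Aged ovary at 0.564 CPM.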

How the results depend on the processing

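Of 38 calls of single members, 446 of 607 values under the alternatives kept direction and threshold, 160 kept only the direction and 1 reversed. In Aged vs Control, the adjusted calls (10) were 5 to 21 with 1 ovary left out and 19 without both ovaries with oviduct markers, and the unadjusted calls (24) 18 to 25 with 1 left out. The median (-0.06) was -0.31 to 0.21 with 1 left out and -0.35 without both. In Aged+CF vs Aged, the adjusted calls (0) were 2 by DESeq2, 0 to 2 with 1 left out and 1 without both. The unadjusted calls (9) were 5 to 18 with 1 left out and 18 without both, and the median (-0.02) was -0.19 to 0.33 and 0.33. In Aged+CF vs Control, the adjusted calls (0) were 2 by DESeq2, 2 with only the groups compared and 0 to 2 with 1 left out. The unadjusted calls (5) were 8 with no filter, 11 with only the groups compared, 3 to 9 with 1 left out and 9 without both. Partners called over the 3 comparisons at adjusted p (1) were 4 by DESeq2, 2 with only the groups compared, 1 to 4 with 1 left out and 4 without both, and at unadjusted p (5) 3 to 9 and 9. The cause of these changes was not tested.

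Whether the replicate numbers pair the ovaries could not be settled. The deviations of ovaries with the same number correlated at -0.185 to 0.153, and those with unlike numbers at -0.185 to 0.193. With so few pairs, these ranges cannot exclude a shared batch. With the replicate number as a block, Aged vs Control had 0 adjusted calls and Aged+CF vs Control 1, while the unadjusted calls were 5 in Aged+CF vs Aged and 8 against Control, the median in Aged+CF vs Control -0.29, and the partners called at adjusted p 0. Under the block, Kcnj16 in Aged+CF vs Aged turned to 0.53. Only 1 number is shared by Aged and Aged+CF.

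Low counts kept 18 members out of the test, and with 3 Aged ovaries 1 ovary moves many values.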
